A study of Rattus norvegicus with 4 samples.

Results

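The skeletal proteins that depend on vitamin K, together with the enzymes of the vitamin K cycle that modify them, were followed in 2 rat cartilages by RNA sequencing. They were taken as the rows of the processed gene table whose symbol was Mgp, Ucma, Bglap, Gas6, Ggcx or Vkorc1, and all 6 were found among 13554 genes. Articular cartilage, which covers the bone ends in joints, was set against xiphoid cartilage, the plate at the lower tip of the sternum, with 2 libraries of each. All rats were Sprague-Dawley, aged 8 to 10 weeks, and the labels give no treatment, genetic change, joint, sex or pooling of animals, and do not tie each library to an animal of its own. The p-values below therefore measure only the spread between these libraries, which may be technical.

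Gla proteins carry glutamate residues that gamma-glutamyl carboxylase turns into gamma-carboxyglutamate (Gla), which binds calcium. The carboxylase uses reduced vitamin K and leaves its epoxide, and vitamin K epoxide reductase returns the epoxide to the pool. Matrix Gla protein keeps cartilage and artery walls from calcifying in the mouse, whereas osteocalcin is laid down in mineralizing bone.

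Among these genes, articular cartilage carried far more osteocalcin (Bglap) transcript and less Ucma, Gas6 and Mgp transcript than xiphoid cartilage. Bglap was 81.4-fold higher in articular cartilage, whereas Ucma was 6.45-fold, Gas6 2.13-fold and Mgp 1.61-fold lower there. The epoxide reductase gene Vkorc1 was 1.31-fold lower in articular cartilage, a call that was lost under several other settings, and the carboxylase gene Ggcx was not called. Each gene was tested with the edgeR quasi-likelihood test, and p-values were adjusted by Benjamini-Hochberg over 11202 genes. At an adjusted p under 0.05, 1 member was higher and 4 were lower in articular cartilage. Of all genes tested, 49.5% were called, 25.0% as higher and 24.5% as lower in articular cartilage, so a call alone sets no member apart. The libraries of the 2 tissues did not overlap for any of the 6 members, which held for 74.9% of all genes tested. Levels are given as CPM, counts scaled to library size with TMM factors, which are not corrected for transcript length, so each gene is compared between tissues and not with another gene.

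The libraries held 7351006 to 8434820 counts. All 10 chondrocyte markers listed, among them Col2a1, Acan and Sox9, had counts in every library. They summed to 12.5% and 10.8% of counts in the articular libraries, against 3.29% and 3.07% in the xiphoid libraries. Col2a1, the type II collagen chain, made most of that gap, and the other 9 markers summed to 2.25% and 2.21% in the articular libraries against 1.64% and 1.598% in the xiphoid libraries. Of the 10, 6 were higher and 2, Cnmd and Comp, were lower in articular cartilage, and Sox9 and Matn3 were not called. Both tissues also held transcripts that mark other cells. Articular cartilage had higher levels of all 6 erythroid, all 4 osteoclast and 5 of 6 neutrophil markers that were tested, whereas all 7 skeletal muscle, all 5 fat cell and 5 of 7 fibroblast markers were lower there. Of all genes tested, 25.0% were higher and 24.5% were lower in articular cartilage. In such bulk samples, fewer cells of a type and less RNA per cell cannot be told apart.

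**Figure D1:**
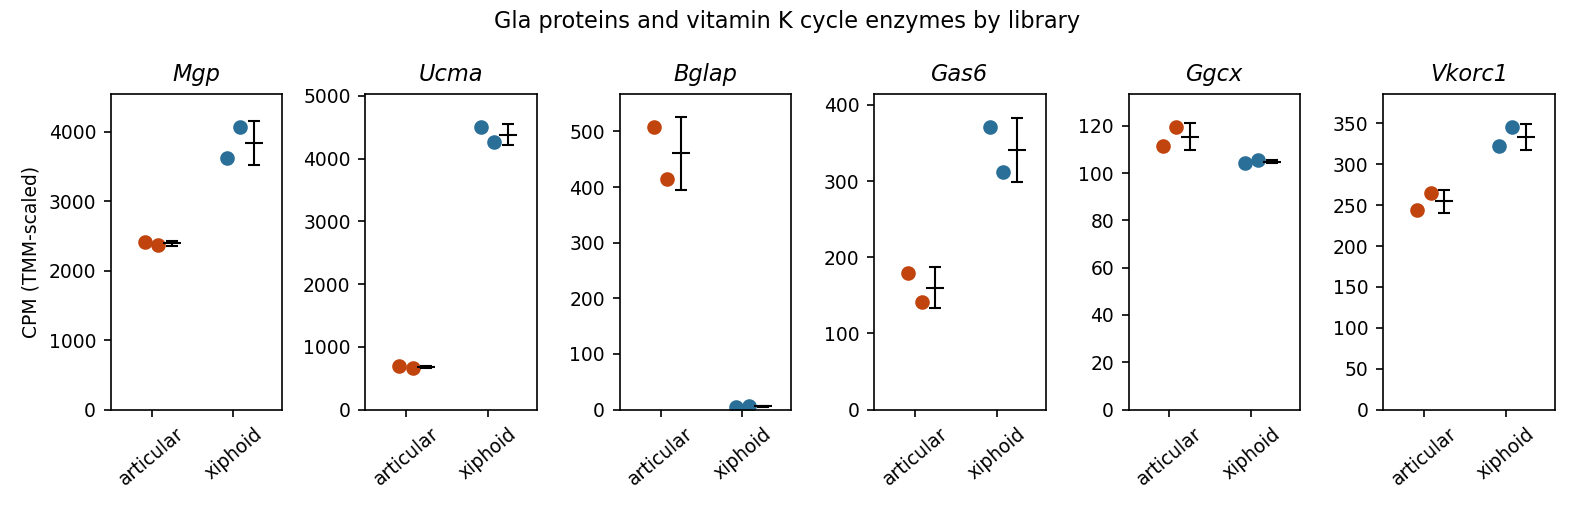
CPM of each member in the 2 articular and the 2 xiphoid libraries (points), with the mean and SD of each tissue (black, n = 2), each gene on its own axis from 0. Bglap lies far higher in the articular libraries, Ucma, Gas6, Mgp and Vkorc1 lie lower there, and the Ggcx values of the tissues lie close together.

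Bglap (Entrez gene 25295) encodes osteocalcin, the Gla protein that osteoblasts secrete into bone matrix. It was at 507 and 414 CPM in the articular libraries, against 5.29 and 6.03 CPM in the xiphoid libraries. The articular values differed between replicates more than the xiphoid ones, yet the lower of them was far above both xiphoid values. The means were 460.9 ± 65.7 in articular and 5.66 ± 0.521 CPM in xiphoid libraries (SD, n = 2 each). The log2 fold change was 6.35 (SE 0.205, 95% interval 5.90 to 6.79, adjusted p = 3.75e-10). Among the genes tested, 77 had a larger change toward articular cartilage. The xiphoid values rest on 45 and 44 counts, so the transcript was detected in both xiphoid libraries, at a low level.

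The promoter of Bglap is shown here, since factors known to act on it are described next, beside that of Ucma, the other member with a large change, which went the opposite way. Both are RefSeq promoter windows on build GRCr8, from 250 bases before to 50 bases after the annotated gene start, and lie on the minus strand, at chr2:176137269-176137568 for Bglap and chr17:78212947-78213246 for Ucma. Capitals mark ACCACA, the core letters bound by Runx factors, and TATAAA, the letters of a TATA box, each searched on both strands, with no overlap between them.
Bglap: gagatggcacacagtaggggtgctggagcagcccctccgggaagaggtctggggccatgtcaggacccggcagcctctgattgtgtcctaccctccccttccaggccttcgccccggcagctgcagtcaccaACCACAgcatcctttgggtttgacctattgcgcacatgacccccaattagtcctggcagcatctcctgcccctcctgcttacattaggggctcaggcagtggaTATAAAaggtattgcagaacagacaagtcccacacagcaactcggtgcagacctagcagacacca
Ucma: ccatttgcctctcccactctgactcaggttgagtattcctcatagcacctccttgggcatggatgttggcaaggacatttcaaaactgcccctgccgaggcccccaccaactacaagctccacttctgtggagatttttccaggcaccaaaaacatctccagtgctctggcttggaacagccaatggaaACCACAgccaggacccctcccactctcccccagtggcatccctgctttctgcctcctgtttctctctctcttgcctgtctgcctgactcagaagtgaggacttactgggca
ACCACA occurred once in each window, starting 118 bases before the Bglap start and 61 bases before the Ucma start, and in 17.3% of all 33469 promoter windows of that length and 12.4% of the 9580 windows of genes tested. TATAAA occurred in the Bglap window alone of the 5 member windows available, and in 14.2% of all windows and 6.98% of those of genes tested. The windows of Gas6, Ggcx and Vkorc1 held no ACCACA, and the GC box letters GGGCGG, also searched on both strands, occurred 3 times in that of Gas6, once in that of Ggcx, at least once in 33.1% of all windows and in 62.3% of those of genes tested. A match of letters is a description and shows no binding.

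Most of the transcription factors known to act on Bglap were also higher in articular cartilage. Of 7 listed, 6 were tested, of which 5 were higher and 1 was lower in articular cartilage, against 25.0% and 24.5% of all genes tested. Their median log2 fold change was 2.61, against -0.02 over all genes tested. Runx2, the master regulator of osteoblasts and of hypertrophic chondrocytes, was at 106 and 164 CPM in the articular libraries against 14.9 and 19.3 CPM in the xiphoid libraries (log2 fold change 2.98, SE 0.23, adjusted p = 6.18e-07). Sp7, or osterix, which acts with Runx2 in bone formation, was at 57.5 and 55.1 CPM against 1.29 and 1.23 CPM (log2 fold change 5.46, adjusted p = 6.81e-09). Both factors were thus higher in each articular library than in either xiphoid library. Such a lack of overlap held for 74.9% of all genes tested.

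Atf4, a stress-responsive factor of osteoblasts, was at 1265 and 1252 CPM in the articular libraries against 257 and 277 CPM in the xiphoid libraries (log2 fold change 2.24, adjusted p = 1.76e-07). Dlx3, a homeobox factor of osteoblasts, had 72 and 48 counts in the articular libraries against 1 count in all in the xiphoid libraries, a 117-fold ratio (exact 95% counting interval 20.7 to 4680). Its one xiphoid count lay in replicate 1, and the fitted log2 fold change of 6.56 became 8.86 without that library and 5.82 without xiphoid replicate 2. Vdr, the vitamin D receptor, was at 17.7 and 12.2 CPM against 9.76 and 7.81 CPM (log2 fold change 0.76, adjusted p = 0.0307). That call was lost without articular replicate 1 (adjusted p = 0.212), without xiphoid replicate 2 (0.139) and under DESeq2 (0.0731). Dlx5, a homeobox activator of osteoblast genes, went against the others, at 42.7 and 52.8 CPM in the articular libraries against 58.9 and 88.1 CPM in the xiphoid libraries (log2 fold change -0.62, adjusted p = 0.0230). Without xiphoid replicate 2, Dlx5 was no longer called, at -0.29 (adjusted p = 0.387). Msx2, a homeobox repressor, was too low to be tested, with 1 count in all in the articular and 12 in the xiphoid libraries, a 12.3-fold ratio toward xiphoid cartilage (exact 95% counting interval 1.81 to 524).

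Most markers of osteoblasts and osteocytes moved with Bglap. Of 12 listed, with Sp7 in both lists, 10 were tested, of which 8 were higher and 1, Pdpn, was lower in articular cartilage. Col1a1, the type I collagen chain of bone and fibrous tissue, was not called (adjusted p = 0.562). Of all genes tested, 25.0% were higher and 24.5% were lower. Ibsp, a sialoprotein of bone, was at 2448 and 1407 CPM in the articular libraries against 9.41 and 6.99 CPM in the xiphoid libraries (adjusted p = 3.22e-08). Dmp1, a matrix protein of osteocytes, was at 249 and 187 CPM against 0.941 and 0.548 CPM (adjusted p = 7.81e-10). Phex, an osteocyte peptidase, had 217 counts in the articular and none in the xiphoid libraries, and was at least 70.8-fold higher against a floor of 3 counts over both xiphoid libraries, and Sost, which encodes the osteocyte protein sclerostin, was at least 17.0-fold higher in the same way. Such floors and counting intervals cover counting error only.

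The whole list summed to 0.859% and 0.815% of counts in the articular libraries, against 0.622% and 0.668% in the xiphoid libraries, with Col1a1 as the larger part of each sum. Without Col1a1, Pdpn and Omd, the other 7 summed to 0.281% and 0.171% in the articular libraries against 0.00120% and 9.93e-04% in the xiphoid libraries. Col1a1, Pdpn and Omd were left out after their values were seen, so the size of this gap follows in part from that choice. Ibsp, with 20462 and 10956 counts, made most of the articular sums. In both xiphoid libraries Phex and Sost were at 0. Of 5 markers listed for chondrocytes that turn hypertrophic, 4 had a row, and Col10a1 had none. These 4, Ihh, Pth1r, Mmp13 and Panx3, were all higher in articular cartilage, against 25.0% of all genes tested. Their log2 fold changes were 5.20 to 8.98. They summed to 0.220% and 0.224% of counts in the articular libraries, against 0.00368% and 0.00343% in the xiphoid libraries, with Panx3 at 0 in xiphoid replicate 2. The part of bone cells or of hypertrophic chondrocytes in the Bglap difference was not tested.

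**Figure D2:**
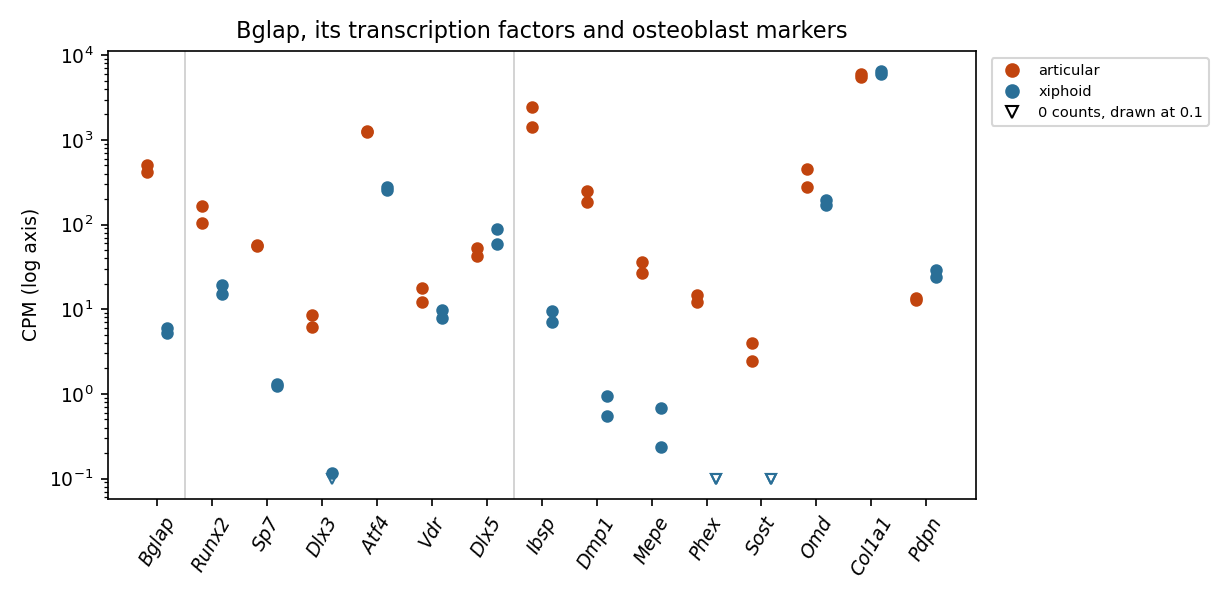
CPM on a log axis in each articular and each xiphoid library for Bglap, for 6 transcription factors known to act on it and for 8 osteoblast and osteocyte markers, in 3 blocks parted by grey lines. Open triangles at 0.1 stand for 0 counts. Bglap, Sp7, Ibsp and Dmp1 lie far higher in the articular libraries, whereas Col1a1 lies at nearly the same level in both tissues and Dlx5 and Pdpn lie lower in the articular libraries.

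Ucma (Entrez gene 291312) encodes the Gla-rich protein that chondrocytes of the upper growth plate and of resting cartilage secrete. It was at 695 and 666 CPM in the articular libraries, against 4500 and 4271 CPM in the xiphoid libraries. The replicates lay close together in each tissue, and the 2 tissues stood far apart. The means were 680.2 ± 20.6 in articular and 4385 ± 162 CPM in xiphoid libraries (SD, n = 2 each). The log2 fold change was -2.69 (SE 0.16, 95% interval -3.03 to -2.34, adjusted p = 5.63e-08), and 514 of the genes tested had a larger change toward xiphoid cartilage. Its row held an annotated transcript together with one assembled by the submitters' pipeline, and the files do not say how its reads were shared between them.

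Mgp (Entrez gene 25333) encodes matrix Gla protein, the calcification inhibitor of cartilage and vessel walls. It was at 2422 and 2365 CPM in the articular libraries, against 3622 and 4067 CPM in the xiphoid libraries. The xiphoid values were higher and further apart than the articular ones. The means were 2394 ± 39.8 in articular and 3844 ± 315 CPM in xiphoid libraries (SD, n = 2 each). The log2 fold change was -0.68 (SE 0.15, 95% interval -1.02 to -0.35, adjusted p = 0.00282). The call was lost without xiphoid replicate 2 (-0.59, adjusted p = 0.0703), and 2336 genes had a larger change toward xiphoid cartilage.

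The mix of Gla protein transcripts, which follows from the changes above, also differed between the libraries of the 2 cartilages. Each library had a Ucma count of 0.287 and 0.281 times its Mgp count in articular cartilage, against 1.24 and 1.05 times in xiphoid cartilage. The log2 ratio differed by -2.01 between the tissues. An exact 2-sided permutation test gave p = 0.333, the smallest that 2 libraries against 2 can give, so it cannot decide. The 4 Gla protein genes Mgp, Ucma, Bglap and Gas6 together took 0.379% and 0.359% of counts in the articular libraries, against 0.857% and 0.859% in the xiphoid libraries. Of these summed counts, Ucma took 18.3% and 18.6% in articular cartilage, against 53.0% and 49.3% in xiphoid cartilage. Bglap took 13.3% and 11.6% in articular cartilage, against 0.0623% and 0.0697% in xiphoid cartilage. Mgp took 63.7% and 66.0% against 42.6% and 47.0%, and Gas6 took 4.70% and 3.93% against 4.36% and 3.598%.

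**Figure D3:**
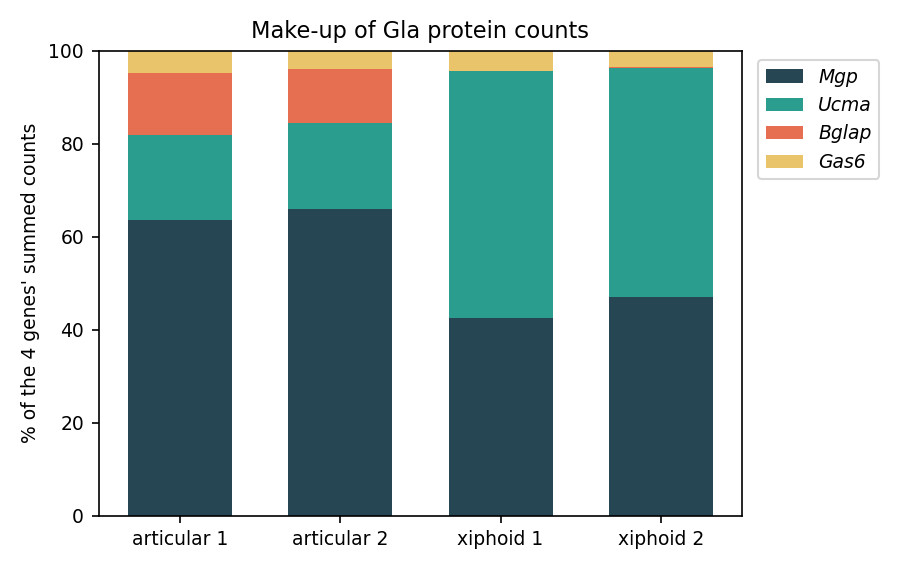
Share of each gene in the summed counts of the 4 Gla protein genes (vertical axis, %) in each articular and each xiphoid library. Counts are not corrected for transcript length, so the heights compare libraries and not genes. Ucma takes 18.3% and 18.6% in articular cartilage, against 53.0% and 49.3% in xiphoid cartilage, where the share of Bglap is too thin to see.

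Gas6 (Entrez gene 58935) encodes a secreted Gla protein that binds phosphatidylserine on dying cells and the receptors Axl, Tyro3 and Mertk. It was at 179 and 141 CPM in the articular libraries, against 370 and 311 CPM in the xiphoid libraries. Replicate 1 was the higher one in both tissues, and the tissues did not overlap. Gas6 averaged 159.9 ± 26.7 in articular and 340.9 ± 41.7 CPM in xiphoid libraries (SD, n = 2 each). The log2 fold change was -1.09 (SE 0.16, 95% interval -1.45 to -0.73, adjusted p = 1.62e-04). In the RefSeq annotation of GRCr8 the span of Gas6 overlaps that of Tmem255b, a gene on the opposite strand, which was at 202 and 185 CPM in the articular libraries against 5.29 and 3.97 CPM in the xiphoid libraries (adjusted p = 1.35e-09). No source used here states a strand setting for counting, and where exons of both genes overlap their reads cannot be told apart without one.

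Of the 3 receptors of Gas6, 2 were lower in articular cartilage, where 24.5% of all genes tested were lower, and the median log2 fold change of the 3 was -1.29. Axl was at 13.2 and 12.7 CPM in the articular libraries against 40.9 and 33.7 CPM in the xiphoid libraries (log2 fold change -1.53, SE 0.20, adjusted p = 4.87e-05). Tyro3 was at 11.4 and 6.04 CPM against 22.9 and 19.9 CPM (log2 fold change -1.29, SE 0.28, adjusted p = 0.00221). Mertk, the receptor macrophages use to clear dead cells, was at 4.79 and 2.95 CPM against 5.06 and 5.07 CPM and was not called (log2 fold change -0.38, 95% interval -1.17 to 0.41, adjusted p = 0.412). Of 7 macrophage markers, 2 were higher in articular cartilage and 5 were not called, and they summed to 0.0133% and 0.0135% of counts in the articular libraries, against 0.00892% and 0.00842% in the xiphoid libraries. Pros1, which encodes protein S, the other Gla ligand of these receptors and a cofactor of anticoagulation, was at 47.5 and 53.8 CPM against 72.3 and 78.8 CPM (log2 fold change -0.58, adjusted p = 0.00896). That call was lost without xiphoid replicate 2 (-0.50, adjusted p = 0.103).

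Markers of some cells other than chondrocytes moved with Ucma, Mgp and Gas6 too, whereas most erythroid, osteoclast and neutrophil markers tested went the other way. Over all genes tested, 24.5% were lower and 25.0% were higher in articular cartilage. Of 5 endothelial markers, 2 were lower and 1 was higher there, and 2 were not called, so these showed no common direction. Of 7 fibroblast and perichondrium markers, 5 were lower in articular cartilage and 2, Pdgfra and Thy1, were not called. They summed to 0.0621% and 0.0576% of counts in the articular libraries, against 1.48% and 1.34% in the xiphoid libraries, most of it from Gsn, which encodes the actin-binding protein gelsolin. Of 6 smooth muscle and pericyte markers, 4 were lower in articular cartilage, 1 was higher and 1 was not called. Their sums were 0.00683% and 0.00588% of counts in the articular libraries, against 0.0169% and 0.0173% in the xiphoid libraries, with Cnn1 at 0 in articular replicate 2. All 5 fat cell markers were lower in articular cartilage, at 0.00423% and 0.00331% of counts in the articular libraries against 0.205% and 0.155% in the xiphoid libraries, with Lep at 0 in both articular libraries. All 7 skeletal muscle markers were lower in articular cartilage as well, at 0.00338% and 0.00245% of counts against 0.737% and 0.769%, with Myh2 at 0 in both articular libraries and Myh4 at 0 in replicate 1. The part of these cells in the differences of Ucma, Mgp and Gas6 was not tested.

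Ggcx (Entrez gene 81716) encodes gamma-glutamyl carboxylase, the one enzyme that makes Gla residues. It was at 111 and 119 CPM in the articular libraries, against 104 and 105 CPM in the xiphoid libraries. The articular values were slightly higher and the tissues did not overlap, but the difference did not pass (log2 fold change 0.14, SE 0.14, adjusted p = 0.461). Its 95% interval, from -0.18 to 0.45, leaves room for a small difference in either direction.

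Vkorc1 (Entrez gene 309004) encodes the catalytic subunit of vitamin K epoxide reductase, the target of warfarin. It was at 244 and 265 CPM in the articular libraries, against 322 and 345 CPM in the xiphoid libraries. The articular values lay below the xiphoid ones without overlap. The log2 fold change was -0.39 (SE 0.14, 95% interval -0.70 to -0.08, adjusted p = 0.0372). The call was lost without articular replicate 1 (-0.33, adjusted p = 0.0958), without xiphoid replicate 1 (-0.43, adjusted p = 0.159) and without xiphoid replicate 2 (-0.33, adjusted p = 0.305). It was also lost with upper-quartile scaling (adjusted p = 0.0644) and under DESeq2 (0.0579).

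Genes that feed or slow the vitamin K cycle were called in both directions. Of 5 listed, all tested, 1 was higher and 2 were lower in articular cartilage, against 25.0% and 24.5% of all genes tested. The median log2 fold change was -0.47, against -0.02 over all genes tested. Calu encodes calumenin, a calcium-binding protein of the endoplasmic reticulum that inhibits the carboxylase. It was at 635 and 634 CPM in the articular libraries against 321 and 317 CPM in the xiphoid libraries (log2 fold change 0.99, SE 0.14, adjusted p = 1.10e-04). Both replicate pairs lay close together, so the tissues stood well apart.

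Nqo1 and Aifm2 encode quinone reductases that can reduce vitamin K, the second also known as ferroptosis suppressor protein. Nqo1 was at 24.0 and 25.2 CPM in the articular libraries against 78.9 and 101 CPM in the xiphoid libraries (log2 fold change -1.87, SE 0.18, adjusted p = 3.45e-06). Aifm2 was at 63.0 and 53.8 CPM against 137 and 123 CPM (log2 fold change -1.15, SE 0.16, adjusted p = 8.11e-05). Both reductases were thus lower in each articular library than in either xiphoid library. The tissues likewise did not overlap for 74.9% of all genes tested. Vkorc1l1, the paralog of Vkorc1, was at 4.90 and 5.39 CPM in the articular libraries against 7.53 and 6.71 CPM in the xiphoid libraries and was not called (log2 fold change -0.47, 95% interval -1.12 to 0.18, adjusted p = 0.213).

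Lipoprotein receptors can bring vitamin K into cells, and of 4 listed, all tested, 2 were lower in articular cartilage and 2 were not called, close to the 49.5% called over all genes tested. Their median log2 fold change was -0.67. Cd36, a fatty acid and lipoprotein scavenger receptor of fat and muscle, was at 14.4 and 18.4 CPM in the articular libraries against 334 and 391 CPM in the xiphoid libraries (log2 fold change -4.47, SE 0.19, adjusted p = 3.21e-09). The fat cell and skeletal muscle markers given above moved with it, and their part was not tested. Scarb1, the receptor of high-density lipoprotein, was at 58.5 and 66.1 CPM in the articular libraries against 125 and 136 CPM in the xiphoid libraries (log2 fold change -1.07, adjusted p = 1.14e-04). Lrp1, which takes up chylomicron remnants, was at 438 and 337 CPM against 524 and 418 CPM and was not called (adjusted p = 0.198), and its libraries overlapped between tissues. It was called as lower in articular cartilage without articular replicate 1 (-0.48, adjusted p = 0.0143) and with the replicate number as a block (-0.28, adjusted p = 0.00369).

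Among other Gla proteins, of the blood and the cell membrane, calls went both ways. Of 11 listed, 8 were in the table and 4 were tested. Of these, 1 was higher and 2 were lower in articular cartilage, against 25.0% and 24.5% of all genes tested. The median log2 fold change of the 4 was 0.04. Besides Pros1, F10, coagulation factor X, was at 1.67 and 2.31 CPM in the articular libraries against 11.99 and 13.6 CPM in the xiphoid libraries (log2 fold change -2.67, SE 0.32, adjusted p = 2.90e-05). Alb, the albumin of hepatocytes, which are the usual source of factor X, had 2 counts in the articular and 49 in the xiphoid libraries. Of 4 hepatocyte markers listed, Ttr and Fgb had no row. Apoa1, with 2 counts in the articular and 8 in the xiphoid libraries, did not pass the filter on low counts. The part of hepatocytes in the F10 difference was not tested. Prrg1, a membrane protein with a Gla domain, was at 4.19 and 4.11 CPM in the articular libraries against 0.353 and 0.685 CPM in the xiphoid libraries, where it had 3 and 5 counts (log2 fold change 2.99, SE 0.55, adjusted p = 7.10e-04). Prrg2, a relative, was not called (adjusted p = 0.233). Proc, which encodes the anticoagulant protein C, had 10 counts in all in the articular libraries and 1 in the xiphoid libraries and was not tested, a 9.79-fold ratio (exact 95% counting interval 1.39 to 425). F7, Proz and Prrg4 had at most 2 counts in any library.

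Furin and related convertases cut the propeptides of secreted proteins, Gla proteins among them, and Fam20c phosphorylates secreted proteins. Of 5 listed, Pcsk6 was higher in articular cartilage, Pcsk5 was lower, and Furin, Pcsk7 and Fam20c were not called. The median log2 fold change of the 5 was -0.15, and 49.5% of all genes tested were called. Pcsk6 was at 511 and 541 CPM in the articular libraries against 160 and 156 CPM in the xiphoid libraries (log2 fold change 1.73, SE 0.14, adjusted p = 1.21e-06). Pcsk5 was at 27.8 and 26.2 CPM against 42.6 and 40.1 CPM (log2 fold change -0.62, adjusted p = 0.00967), a call that was lost without xiphoid replicate 1 (-0.56, adjusted p = 0.0988). Furin itself was at 314 and 249 CPM in the articular libraries against 323 and 304 CPM in the xiphoid libraries, which overlapped (adjusted p = 0.439).

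**Figure D4:**
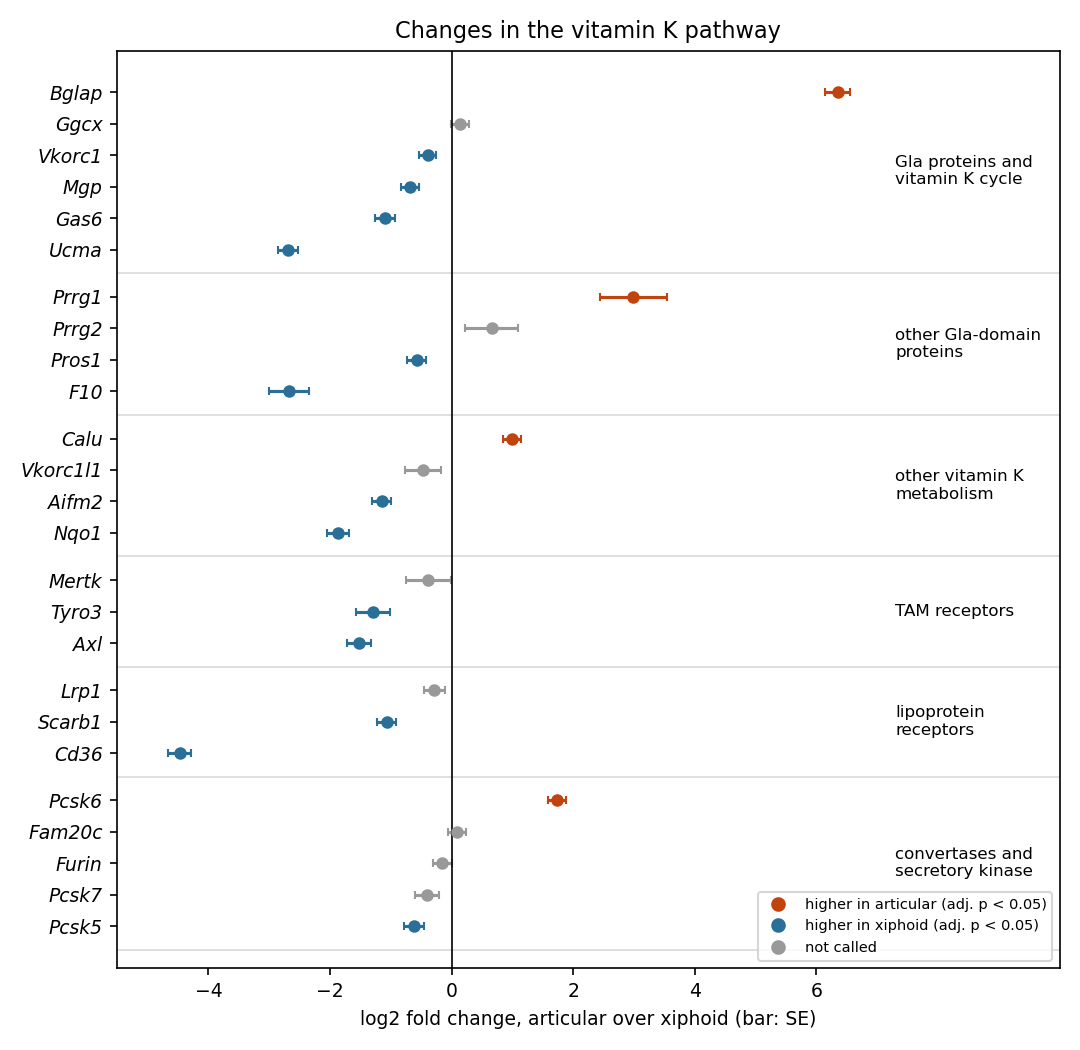
Log2 fold change of articular over xiphoid cartilage (horizontal axis, bars are SE) of each tested member and of genes that serve the vitamin K pathway, by role. Orange points were higher and blue points lower in articular cartilage at an adjusted p under 0.05, and grey points were not called. Bglap, Prrg1, Calu and Pcsk6 lie to the right, and Ucma, Gas6, Mgp and Vkorc1 lie to the left of 0.

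Partners that matrix Gla protein binds split evenly. Of 7 listed, 6 were tested, with 3 higher and 3 lower in articular cartilage and a median log2 fold change of -0.53. Over all genes tested, 25.0% were higher and 24.5% were lower. Bmp2, a bone morphogenetic protein that Mgp restrains, was at 16.5 and 18.4 CPM in the articular libraries against 3.65 and 5.07 CPM in the xiphoid libraries (log2 fold change 2.01, SE 0.27, adjusted p = 7.11e-05). Bmp4, another such ligand, was at 1.32 and 1.54 CPM against 5.88 and 5.48 CPM (log2 fold change -1.98, SE 0.41, adjusted p = 0.00165). The pair thus went opposite ways. Spp1, the phosphoprotein osteopontin, was at 3780 and 4650 CPM in the articular libraries against 337 and 352 CPM in the xiphoid libraries (adjusted p = 1.06e-08), and Fn1, fibronectin, was 1.90-fold higher in articular cartilage (adjusted p = 3.40e-04). Vtn, vitronectin, had 5 and 1 counts in the articular libraries against 45 and 33 in the xiphoid libraries (log2 fold change -3.67, SE 0.60, adjusted p = 3.02e-04). Without articular replicate 1 the value of Vtn was -5.09, and without articular replicate 2 it was -3.01, a call in both cases. Eln, elastin, was at 16.0 and 12.5 CPM against 22473 and 18592 CPM (adjusted p = 7.04e-11).

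Genes of mineral and pyrophosphate handling, the setting in which Mgp and osteocalcin act, were higher in articular cartilage or not called. All 8 listed were tested. Of these, 5 had higher levels in articular cartilage, against 25.0% of all genes tested, and 3, Slc20a1, Slc20a2 and Anxa5, were not called. The median log2 fold change was 0.77, against -0.02 over all genes tested. Alpl, the alkaline phosphatase that removes pyrophosphate, was at 931 and 907 CPM in the articular libraries against 7.17 and 7.95 CPM in the xiphoid libraries (adjusted p = 1.31e-10). Phospho1, a phosphatase of matrix vesicles, was at 470 and 525 CPM against 31.6 and 34.2 CPM (adjusted p = 3.00e-09). Enpp1 and Ankh, which supply the mineral inhibitor pyrophosphate, were 1.84-fold (adjusted p = 3.99e-04) and 1.58-fold higher (adjusted p = 0.00244). Most of the bone cell markers given above moved with Alpl, Phospho1 and Spp1, and their part was not tested.

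Receptors proposed for osteocalcin in the mouse were near the limit of detection. Gprc6a had 2 counts in all in the articular and 13 in the xiphoid libraries, a 6.64-fold ratio toward xiphoid cartilage (exact 95% counting interval 1.5 to 60.6). Gpr158 had 2 counts in 1 articular library and 0 in the other libraries, and Gpr37 had 3 to 8 counts in each library. None of the 3 passed the filter on low counts.

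**Figure D5:**
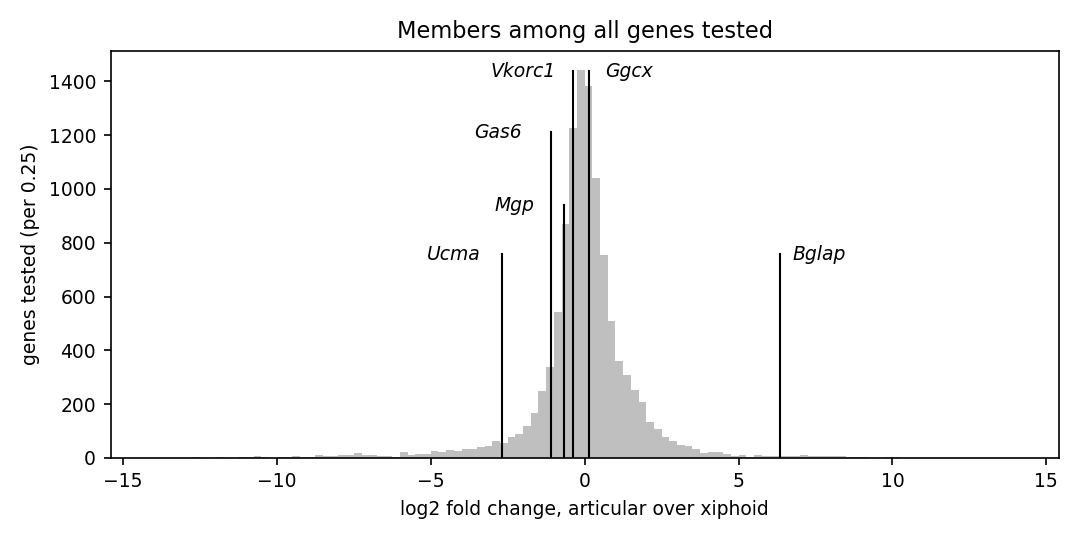
Number of genes tested (vertical axis) by log2 fold change of articular over xiphoid cartilage (horizontal axis, bins of 0.25), with a line at each member whose height carries no value. Bglap, at 6.35, lies in the sparse right tail and Ucma, at -2.69, in the left flank, whereas Vkorc1 and Ggcx lie within the central peak.

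The 3 genes whose pattern over the 4 libraries lay nearest to each member were taken from 7936 other genes with a mean of at least 10 CPM, by the Euclidean distance between centred log2 CPM. For Ucma these were Cpxm1 (distance 0.0883), Mapk8ip1 (0.117) and Il6r (0.138), with log2 fold changes of -2.69, -2.68 and -2.74. For Mgp they were Yap1 (0.0368), Nadk (0.0462) and Casp9 (0.0534), and for Gas6 they were Pnp (0.0486), Evc (0.0563) and Pnpla7 (0.0602). Bglap had no neighbour as close, and its nearest were Apln (0.318), Bmp8a (0.466) and Zap70 (0.577). In the xiphoid libraries Bglap had 45 and 44 counts, Bmp8a 2 and 2, and Zap70 1 and 2. Counting error widens log2 distances at such low counts, so the larger distances do not set the Bglap pattern apart. Apln, which encodes the peptide apelin, was at 424 and 356 CPM in the articular libraries against 3.41 and 4.52 CPM in the xiphoid libraries. The nearest to Ggcx were Znrf2 (0.0226), Tbk1 (0.0269) and Lgals8 (0.0294), none of them called, and to Vkorc1 they were Nhp2l1 (0.0195), Zhx2 (0.0295) and Fkbp7 (0.0328). With 4 libraries, many genes share a pattern.

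Of the 12 genes of the table that lie next to a member on the chromosome, 10 were tested. Of these, 2 were higher and 4 were lower in articular cartilage, and 4 were not called. Since 49.5% of all genes tested were called, 25.0% as higher and 24.5% as lower, a call sets no neighbour apart. Those called as higher, Rasa3 (adjusted p = 0.00295) and Grk1 (adjusted p = 3.20e-04), both lie beside Gas6, which was itself lower. Prss53 beside Vkorc1 (adjusted p = 0.00411) and Mat2a beside Ggcx (adjusted p = 0.00385) were lower. Paqr6, which lies beside Bglap in the GRCr8 annotation, was lower in articular cartilage, at 8.01 and 10.1 CPM in the articular libraries against 37.7 and 34.0 CPM in the xiphoid libraries (adjusted p = 9.71e-06), and Pmf1, on the other side, was not called (adjusted p = 0.799). Phyh, which encodes a peroxisomal hydroxylase and lies beside Ucma, was lower in articular cartilage like Ucma, at 82.1 and 101 CPM against 315 and 320 CPM (adjusted p = 1.70e-06). On the other side of Ucma, Mcm10 was not called (adjusted p = 0.965).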

How the data were processed

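RNA from 2 articular and 2 xiphoid cartilage samples was sequenced. The authors deposited unnormalized expected counts per gene and library, as read from the file headers, and 3.91% of the values were not whole. The submitters' processing notes name RSEM 1.2.12, Bowtie2 2.2.6, StringTie 1.2.1, HISAT2 2.0.4 and the build rn6, without saying which step each served. No source used here states a strand setting.

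The counts were rounded to whole numbers and filtered with filterByExpr, which left 11202 genes tested and 2352 untested. After TMM scaling, tissue was tested as the only term with edgeR 4.0.16 (glmQLFit with robust estimation, glmQLFTest) in R 4.3.3, with Benjamini-Hochberg adjustment over all genes tested. All p-values are 2-sided, and log2 fold changes are articular minus xiphoid. The SE is the size of the change divided by the square root of F. The procedure was tested on simulated data. DESeq2 1.42.0 and limma-voom (limma 3.58.1) were among the alternatives.

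The members, gene lists and marker lists were chosen with earlier results of these data known. The text names the members, genes of these lists and the 3 genes nearest in pattern to each member, with a symbol that was no placeholder. Pdpn, Omd, Tmem255b, Rasa3, Grk1, Prss53, Mat2a, Paqr6, Pmf1, Phyh and Mcm10 were singled out after their values were seen, all but Pdpn and Omd by their place in the RefSeq annotation of GRCr8, which matched all 6 members. Its promoter windows matched 5. As that build differs from rn6, coordinates are given for the printed promoters only. Listed genes without a row, such as Ahsg and Col10a1, were not analysed here. A few listed genes enter the counts, medians and sums of their lists but are not reported here one by one.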

Additional observations from a re-analysis of the deposited data

How the results depend on the processing

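Bglap, Ucma and Gas6 kept their direction and their call under all 15 alternatives (one of which, leaving marker rows of other cell types out of the fit, cannot remove the reads of those cells from a member), with log2 fold changes of 6.20 to 6.49, -2.72 to -2.64 and -1.27 to -0.93, and Ggcx was not called under any of them (0.09 to 0.19). Mgp lost its call against a fold of 1.5 (glmTreat, -0.68, adjusted p = 0.264) and without xiphoid replicate 2, and its value ranged from -0.76 to -0.59 when each library was left out in turn. Vkorc1 lost its call with upper-quartile factors (-0.35, adjusted p = 0.0644), under DESeq2 (-0.39, adjusted p = 0.0579), with glmTreat (-0.39, adjusted p = 1) and in 3 of the 4 fits that left out a library, which gave -0.45 to -0.33. The cause was not tested. Against a fold of 1.5, 3224 genes were called in place of 5544, 1686 of them higher and 1538 lower in articular cartilage in place of 2799 and 2745, since that test asks for more than a difference from 0. With a library left out, 4332 to 5993 genes were called. Furin, not called, was at 0.00 without articular replicate 2, where its sign turned.

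The replicate numbers are shared by the tissues, but the labels do not say that they pair the samples. Deviations from the tissue means correlated at 0.188 across genes between same-numbered libraries. With the replicate block 6828 genes were called, 3344 higher and 3484 lower in articular cartilage, and the same 5 members were called. Lrp1, Anxa5, Pcsk7, Nhp2l1 and Zhx2 were called as lower in articular cartilage under it. In fits that left out a library, the lone sample of a tissue is assumed to vary like the other tissue. Leaving out the ribosomal RNA rows, an alternative chosen after seeing the data, changed no call of a member. Differences in genes with few counts, such as Proc and Gprc6a, were limited by depth.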
